A study of Mus musculus with 6 samples.

Results

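The ovulatory and cumulus expansion genes were taken as 9 genes that the gonadotropin surge is known to raise in the preovulatory follicle: Areg, Ereg, Btc, Ptgs2, Has2, Tnfaip6, Ptx3, Vcan and Adamts1. They were chosen by name, and each was measured by the probe sets for which the array's annotation lists that gene symbol and no other. By this rule 8 of the 9 genes had a probe set, 19 probe sets in all, among the 18193 genes tested, and Areg was not analysed here. The samples were ovarian secondary follicles of female C57BL/6J mice kept free of specific pathogens. In 3 samples, called young, the mice were 9 weeks old, and in the other 3, called old, they were 32 weeks old. No treatment is given for either group, both share the strain, the sex and the tissue, and no source used here says how many mice contributed to a sample.

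A secondary follicle is an oocyte with several layers of granulosa cells and no fluid-filled cavity, a stage at which rodent follicles can grow without gonadotropins. Much later, in the preovulatory follicle, luteinizing hormone raises cyclic AMP in the mural granulosa cells, which then release the EGF-like ligands amphiregulin, epiregulin and betacellulin. These act on the EGF receptor of the cumulus cells around the oocyte, which make prostaglandin and a hyaluronan-rich matrix, the process called cumulus expansion. Immediate-early genes such as Fos, Jun and Egr1 also respond to the surge, and to many other stimuli. The comparison therefore asks whether the surge-induced genes accompanied the immediate-early genes in old follicles.

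Of the 8 genes measured, 0 changed by a fold of 2 or more between old and young follicles, where 0.764% of all genes did so with an adjusted p of at most 0.05. Adamts1 was 1.73-fold higher in old follicles and Btc 1.41-fold higher, and both passed the test on their difference at an adjusted p of at most 0.05, as 23.4% of all genes did. Ptgs2, Ereg, Has2, Tnfaip6, Ptx3 and the brightest probe set of Vcan did not pass it. Over the same arrays, 14 of 32 immediate-early genes were called higher, where 0.638% of all genes were. They were known from earlier results of these data to be higher, so their count serves only as a reference for size. The immediate-early and ovulatory genes also differ in brightness.

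All values are log2 of the RMA intensity, where RMA is the method that combines the probes of a probe set into 1 value per array. A gene was represented by its brightest probe set, and counted as called where limma gave an adjusted p of at most 0.05 together with a fold of 2 or more. The lower quartile of all log2 values lay between 3.13 and 3.24 on the 6 arrays, and no detection calls were used, so a level below this quartile is described as dim and not as absent. Probe sets of the same gene can differ widely in intensity, so the level of 1 gene was not compared with that of another.

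The groups also differed in features of the whole arrays. The 3' minus 5' difference of the Gapdh control probe sets was 0.47 ± 0.014 (SD, n = 3) in young and 1.51 ± 0.0048 (SD, n = 3) in old samples, and that of beta-actin was 1.48 ± 0.033 and 2.53 ± 0.050 (exact two-sided permutation p = 0.1 for each, the smallest that 3 samples against 3 allow). This separation followed the age groups completely, so age and this difference between the arrays cannot be told apart. All 9 granulosa cell markers measured and all 10 oocyte markers had levels above the lower quartile on at least 1 array, and Cyp19a1, the tenth granulosa marker, was not analysed here. The summed intensity of the granulosa markers was 27620 to 29243 in young and 29505 to 29951 in old samples. That of the oocyte markers was 25067 to 25670 and 21072 to 21516. Such sums of linear intensities are weighted towards the brightest genes of a list. Among the granulosa markers Gja1 rose and Esr2 fell by the adjusted p and 7 did not pass it, with a median difference of 0.03. By the adjusted p alone 8 of the 10 oocyte markers fell. Of all genes 13.3% fell and 10.1% rose by it, and 0.638% were called higher. The summed markers of leukocytes and of surface epithelium were higher in old samples, with sums of 280 to 292 against 527 to 563 for 10 macrophage and leukocyte genes, of which 3 were called higher (7 passed the adjusted p, and Itgam was dim on all 6 arrays), and of 667 to 695 against 915 to 977 for 7 surface epithelium genes, of which 3 were called higher. In bulk RNA of this kind, fewer cells of a type and less RNA per cell cannot be told apart.

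The promoters of the ovulatory genes were read for the elements through which cyclic AMP and AP-1, the dimer of Fos and Jun proteins, are known to act. RefSeq promoter windows of GRCm38.p6, from 250 bases before to 50 bases after the start of the gene, were held for 7 of the 9 genes, all but Ereg and Has2. The full cyclic AMP response element TGACGTCA was found only in Areg among these 7, and in 1.79% of all 32851 windows. Its short form TGACG, which the full element contains, was found in Areg, Btc, Ptgs2 and Adamts1 and in 20.8% of windows. The AP-1 site TGANTCA was found in Tnfaip6 and in 7.81% of windows, and the C/EBP site TTNNGCAA in Ptgs2 and Ptx3 and in 10.8%. The EGR site GCGNGGGCG, held by 5.55% of windows, and the CArG box, held by 1.63%, were found in 0 of the 7. Both strands were searched. The stretches that follow show the full element of the 1 ligand that was not measured, the AP-1 site of a gene that did not pass the test, and the short element of the 2 genes with the largest differences, with the motif in capitals and read 5′ to 3′ along the strand of the gene.
Areg, chr5:91139512-91139571, plus strand, motif from base -61: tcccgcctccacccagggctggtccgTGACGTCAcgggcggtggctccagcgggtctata
Tnfaip6, chr2:52037944-52038003, plus strand, motif from base -142: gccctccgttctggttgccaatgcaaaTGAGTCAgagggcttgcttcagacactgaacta
Adamts1, chr16:85803252-85803311, minus strand, motif from base -170: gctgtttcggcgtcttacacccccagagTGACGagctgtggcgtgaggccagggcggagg
Ptgs2, chr1:150100031-150100060, plus strand, motif from base 14 after the start: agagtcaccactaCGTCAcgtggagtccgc
In Ptgs2 the short form lies on the other strand and so reads CGTCA. A match of letters describes the window and is no evidence that a factor bound there.

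Epiregulin, encoded by Ereg, is a ligand that carries the surge signal from mural granulosa to cumulus cells. In young follicles the log2 intensity of Ereg was 2.07, 2.04 and 1.93, and in old follicles 2.23, 2.16 and 2.10. The old samples all lay above the young ones, and all 6 values were below the lower quartile of their arrays. The difference was 0.15 on the log2 scale (SE 0.06, 95% interval 0.0014 to 0.30, limma adjusted p = 0.13) and did not pass the test.

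Betacellulin, encoded by Btc, acts on the same receptor. The log2 intensity of Btc was 3.78, 3.83 and 4.18 in young and 4.17, 4.53 and 4.59 in old samples. The lowest old sample lay just below the highest young sample, so the groups overlapped. Btc rose by 0.50 on the log2 scale (SE 0.14, 95% interval 0.17 to 0.83, limma adjusted p = 0.039). It did not pass without young replicate 1 or 2 or old replicate 2 or 3, where the difference was 0.42 to 0.45 with an adjusted p of 0.11 or 0.12, nor with the mean of both Btc probe sets (0.29, adjusted p = 0.081). The second probe set, 1421161_at, was dim in all 6 samples and differed by 0.07 (adjusted p = 0.63 over 34945 probe sets).

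Ptgs2 encodes prostaglandin-endoperoxide synthase, the inducible enzyme of prostaglandin synthesis that ovulation needs. Its log2 intensity was 2.39, 2.96 and 2.36 in young and 2.94, 3.09 and 3.47 in old samples. Young replicate 2 stood with the old samples, the groups overlapped, and 5 of 6 values were below the lower quartile. The difference of 0.60 (SE 0.19, 95% interval 0.15 to 1.05, limma adjusted p = 0.059) did not pass the test. Without young replicate 2 it was 0.80 with an adjusted p of 0.019. SAM, which the study's methods name, was coded here after its published description, and this version gave q = 0.0024 for Ptgs2. Leaving out any other sample gave 0.45 to 0.71 without passing the test, and the mean of both probe sets gave 0.31 (adjusted p = 0.14). The second probe set, 1417263_at, differed by 0.01 (adjusted p = 0.95).

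Has2, Tnfaip6, Ptx3 and Vcan build or hold the expanded matrix, and the first 3 of them had values at or below the lower quartile in several samples. Has2, the synthase that makes hyaluronan, had log2 intensities of 3.12, 2.62 and 2.84 in young and 3.14, 3.26 and 2.88 in old samples. The groups overlapped, and the difference of 0.24 (SE 0.14, 95% interval -0.10 to 0.57, limma adjusted p = 0.28) did not pass the test, and lay between 0.11 without young replicate 2 and 0.36 without young replicate 1. Tnfaip6, whose protein moves heavy chains of inter-alpha-trypsin inhibitor onto hyaluronan, had values of 2.14, 2.18 and 2.15 in young and 2.16, 1.94 and 2.18 in old samples. All 6 values lay below the lower quartile and the groups overlapped, with a difference of -0.06 (95% interval -0.24 to 0.11, limma adjusted p = 0.58). Ptx3, the pentraxin that cross-links these chains, had values of 3.29, 3.22 and 3.16 in young and 3.14, 2.62 and 3.16 in old samples. Old replicate 2 stood below the rest, and the difference of -0.25 (95% interval -0.58 to 0.08, limma adjusted p = 0.24) did not pass the test and was -0.074 without that sample. The second probe sets of Has2 and Ptx3 differed by -0.04 and 0.09 (adjusted p = 0.77 for each).

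**Figure D1:**
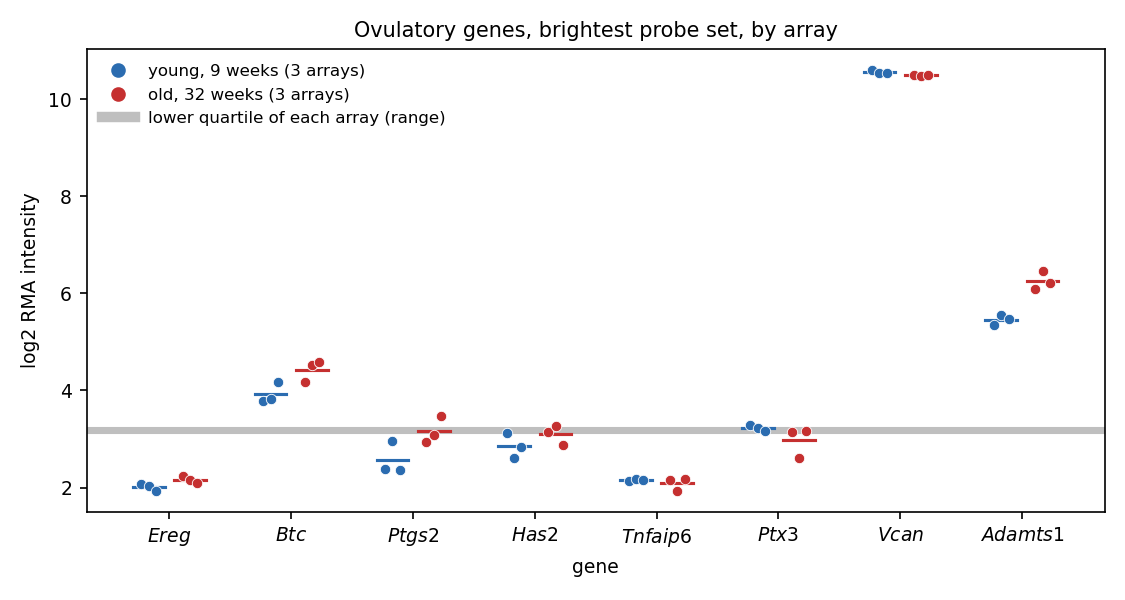
Log2 RMA intensity (vertical axis) of the brightest probe set of each of the 8 measured genes, with 1 point per sample, young (9 weeks) beside old (32 weeks), bars at the group means and a grey band at the lower quartiles of the arrays. The old samples of Adamts1, between 6.09 and 6.45, all lie above the young ones, between 5.35 and 5.56, while Ereg and Tnfaip6 lie below the lower quartile in all 6 samples.

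Versican, the large proteoglycan encoded by Vcan, binds hyaluronan in the expanded matrix and is cut by Adamts1. The brightest Vcan probe set, 1427256_at, had log2 intensities of 10.60, 10.54 and 10.53 in young and 10.49, 10.48 and 10.49 in old samples. The old samples lay below the young ones without overlap, but the difference of -0.07 (SE 0.05, 95% interval -0.18 to 0.05, limma adjusted p = 0.37) did not pass the test. Vcan had 7 further probe sets, and they did not move alike.

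Probe set 1421694_a_at had log2 intensities of 9.34, 9.25 and 9.26 in young and 8.77, 8.78 and 8.71 in old samples. It fell by 0.53 on the log2 scale (SE 0.06, limma adjusted p = 0.0010 over 34945 probe sets). Probe set 1427257_at, with 8.88, 8.92 and 8.88 in young and 8.37, 8.53 and 8.48 in old samples, fell by 0.44 (SE 0.06, adjusted p = 0.0029). Both were bright, and in both the old samples lay below the young ones without overlap. A pair of dim probe sets went the other way. Probe set 1433043_at, with 2.38, 2.55 and 2.67 in young and 3.03, 3.13 and 3.24 in old samples, rose by 0.60 (SE 0.09, adjusted p = 0.0036), and 1433044_at rose by 0.31 (SE 0.07, adjusted p = 0.016). The other 3 probe sets, 1447586_at, 1459767_x_at and 1447887_x_at, were dim in all 6 samples and did not pass the test.

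Among all probe sets that were not the brightest of their gene, 15.4% were lower and 8.54% higher at this threshold. The difference between 1421694_a_at and the brightest Vcan probe set went from -1.27 ± 0.0156 (SD, n = 3) in young to -1.73 ± 0.0381 (SD, n = 3) in old samples, a shift of -0.46 (exact two-sided permutation p = 0.1, the smallest possible). For 1427257_at the shift was -0.37, and for 1433044_at and 1433043_at it was 0.37 and 0.67, each with the same p. The 3' minus 5' control values given above also differed by 1.04 and 1.05 between the groups, and their part in these shifts was not tested.

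**Figure D2:**
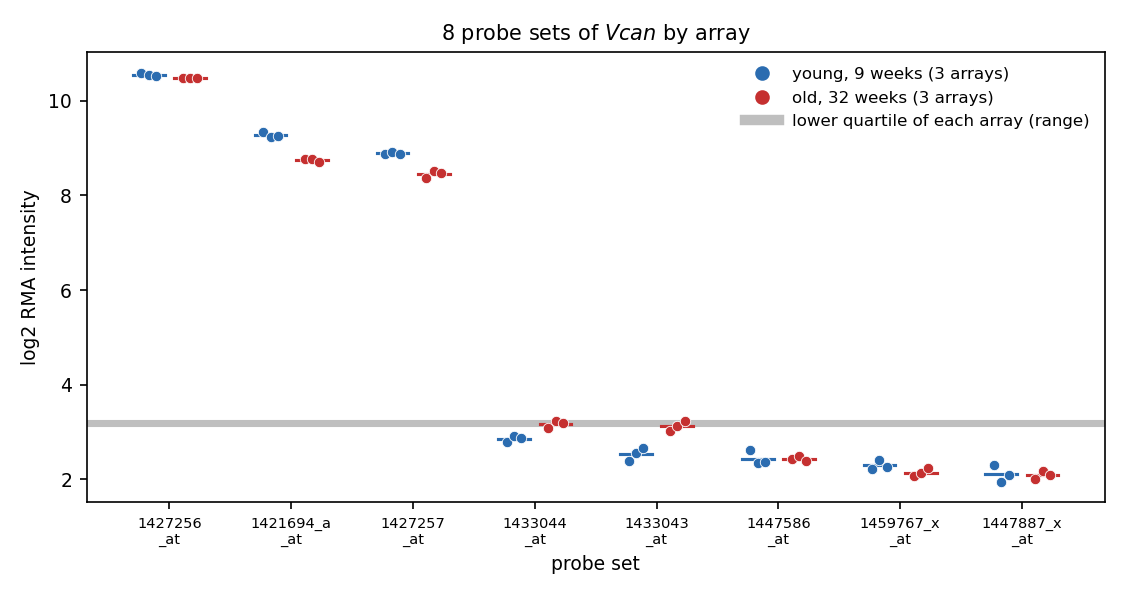
Log2 RMA intensity of the 8 Vcan probe sets (vertical axis) in young and old samples, 1 point per sample with bars at the group means and a grey band at the lower quartiles of the arrays. The 2 bright probe sets 1421694_a_at and 1427257_at are lower in all old samples, by 0.53 and 0.44, while the brightest, 1427256_at, differs by 0.07.

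Adamts1 encodes a secreted metalloprotease that cleaves versican and that ovulation needs. Its only probe set had log2 intensities of 5.35, 5.56 and 5.47 in young and 6.09, 6.45 and 6.21 in old samples. All old samples lay above all young ones. Adamts1 rose by 0.79 on the log2 scale (SE 0.10, 95% interval 0.55 to 1.03, limma adjusted p = 0.0023). The fold of 1.73 did not reach 2, although its interval, 1.47 to 2.04, did. Adamts1 is made by other cells of the ovary too, and the marker sums of macrophages and surface epithelium given above were also higher in old samples. So were those of 11 fibroblast and smooth muscle genes, 4588 to 4965 in young and 5160 to 5225 in old samples (1 called higher, 6 rising and 1 falling by the adjusted p), and of 7 endothelial genes, 234 to 236 and 274 to 291 (0 called, 2 rising and 1 falling). Of all genes 10.1% rose and 13.3% fell by the adjusted p. The part of these cell types in the Adamts1 difference was not tested.

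By the fold rule 0 of 8 genes were called, where 0.764% of all genes were (0.638% higher and 0.126% lower). By the adjusted p alone 2 of 8 rose and 0 fell, where 10.1% of all genes rose and 13.3% fell (23.4% in all). SAM likewise called 0 at a fold of 2, where it called 117 of all 18193 genes higher and 23 lower. By its q it passed 3, Ptgs2 being the third, where 3784 of all genes passed. At an unadjusted p below 0.05 there were 4 of 8 genes, where 37.3% of all genes passed. Old samples lay wholly above young ones in Ereg and Adamts1, against 18.9% of all genes, and wholly below them in Vcan, against 23.7%. Over the 19 probe sets 0 were called, where 1.02% of all probe sets were, and 4 rose and 2 fell by the adjusted p, where 8.95% of all probe sets rose and 13.8% fell (22.8% in all). The 95% interval left out a fold of 2 in either direction for 6 of the 8 genes, the exceptions being Adamts1 and Ptgs2, although array intensities of dim probe sets are known to understate differences.

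The 8 genes were then set beside 32 immediate-early genes, which were all measured. Of these 14 were called higher and 0 lower, where 0.638% and 0.126% of all genes were. By the adjusted p alone 21 rose and 2 fell, against 10.1% and 13.3% of all genes. The median difference of the immediate-early genes was 0.72 on the log2 scale, against 0.19 for the ovulatory genes and -0.0042 for all genes. These 2 lists differ in brightness. Ereg and Tnfaip6 were dim in all 6 samples and Ptgs2 and Has2 in 5, while 1 of the 32 immediate-early genes, Arc, was dim in all 6. Dim probe sets are known to understate differences, which limits this comparison of sizes. Fosb rose by 5.27, Jun by 3.59, Fos by 3.33 (from 8.48 ± 0.030 to 11.81 ± 0.044, SD, n = 3), Egr1 by 2.79, Zfp36 by 2.25 and Btg2 by 1.98. Myc and Gadd45b fell. Fos and Jun proteins form AP-1, Egr1 is a zinc finger transcription factor, and Zfp36 and Btg2 promote mRNA decay. The largest difference among the ovulatory genes, 0.79 for Adamts1, was smaller than each of these 6, which were named for their small p, and larger than 17 of the 32 immediate-early genes. The immediate-early genes were known from earlier results of these data to be higher, so their count is a reference for size and not a new finding.

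**Figure D3:**
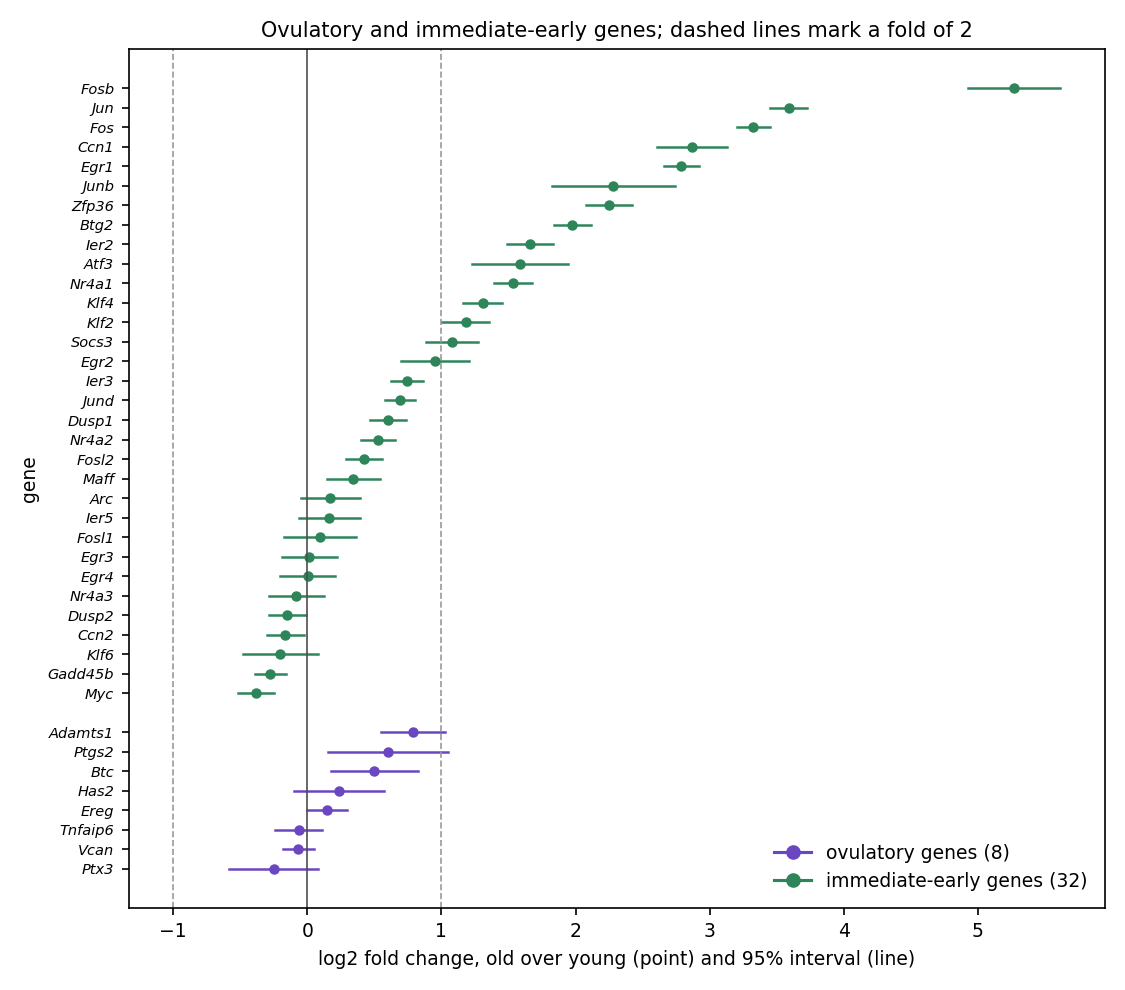
Difference between old and young samples (log2 fold change, horizontal axis) with its 95% interval for the 8 ovulatory genes and for the 32 immediate-early genes, with dashed lines at a fold of 2. The ovulatory genes lie between -0.25 and 0.79, and 14 of 32 immediate-early genes were called higher, where 0.638% of all genes were.

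Around the ligands, 12 further genes of the EGF family, its receptors and shedding enzymes were measured, and 0 were called. By the adjusted p alone 2 rose and 2 fell, against 10.1% and 13.3% of all genes, and the median difference of the list was -0.0045. Erbb3, a receptor partner without strong kinase activity of its own, rose by 0.36 (adjusted p = 0.0064), and the ligand gene Epgn, dim in all samples, rose by 0.40 (adjusted p = 0.0094). The ligand genes Hbegf and Tgfa fell by 0.37 and 0.33 (adjusted p = 0.023 and 0.026). Egfr, the receptor through which the ligands act, differed by 0.17 (adjusted p = 0.080), a gene named after its value was seen.

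Around Ptgs2, 11 of 13 genes of prostaglandin synthesis, receptors and clearance were measured, with Ptgs1 and Ptges3 not analysed here. Again 0 were called. Only Ptger4, a prostaglandin E2 receptor gene, passed the adjusted p, where 23.4% of all genes did. Ptger4 fell by 0.44 (SE 0.06, adjusted p = 0.0027) from 7.08 to 6.64. Ptger2, the receptor gene best known from cumulus cells, differed by 0.34 (adjusted p = 0.056).

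Of 26 genes of the hyaluronan matrix and its turnover 25 were measured and 0 were called. By the adjusted p 6 rose and 3 fell, against 10.1% and 13.3% of all genes. Timp1, an inhibitor of matrix metalloproteases, rose by 0.57 (adjusted p = 0.0046). The hyaluronan receptor genes Cd44 and Hmmr rose by 0.61 and 0.38 (adjusted p = 0.0084 and 0.0074). Itih5, of the inter-alpha-trypsin inhibitor heavy chain family, fell by 0.30 (adjusted p = 0.0072). Cd44 is also a gene of leukocytes, whose marker sum was higher in old samples, and its part here was not tested.

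Among 22 of 24 other ovulatory transcription factors and effectors, only Star was called. Star, which carries cholesterol into the mitochondrion for steroid synthesis, had log2 intensities of 4.68, 4.85 and 4.80 in young and 6.65, 6.63 and 6.67 in old samples. It rose by 1.87 (SE 0.06, limma adjusted p = 4.0e-06). By the adjusted p alone 6 genes rose and 2 fell in this list, against 10.1% and 13.3% of all genes. Besides Star, Prkg2 and Edn2 rose by 0.42 each, Il11 by 0.39, Pgr by 0.34 and Snap25, dim in all 6 samples, by 0.30. Cd24a fell by 0.70 and Cited2 by 0.33. The median difference of the list was 0.06. Star is a theca and interstitial cell marker as well, and of the other 3 measured genes of that marker list Cyp11a1 was called higher, by 1.34, while Cyp17a1 differed by -0.11 (adjusted p = 0.25) and Hsd3b1 by 0.04 (adjusted p = 0.58). The sum of that list was 3472 to 3535 in young and 3843 to 3890 in old samples, and that of 3 luteal genes, which include Cyp11a1, was 198 to 211 and 411 to 442. Of the luteal genes only Cyp11a1 passed the test. The part of theca and luteal cells was not tested.

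Between receptor and cumulus genes lie the ERK and cyclic AMP cascades, of which 15 of 17 genes were measured. Of these 0 were called, and 1 rose and 3 fell by the adjusted p, against 10.1% and 13.3% of all genes. Creb1, the factor that binds the cyclic AMP response element, fell by 0.46 (adjusted p = 0.0021), as did Prkar1a, a regulatory subunit of protein kinase A, by 0.46 (adjusted p = 0.0019). Gnas, the stimulatory G protein subunit, fell by 0.27 (adjusted p = 0.016). Pde4d, which breaks down cyclic AMP, rose by 0.76 (adjusted p = 0.010). Its mean was 3.35 in young and 4.11 in old samples, close to the lower quartile, and 1 of its values lay below it.

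**Figure D4:**
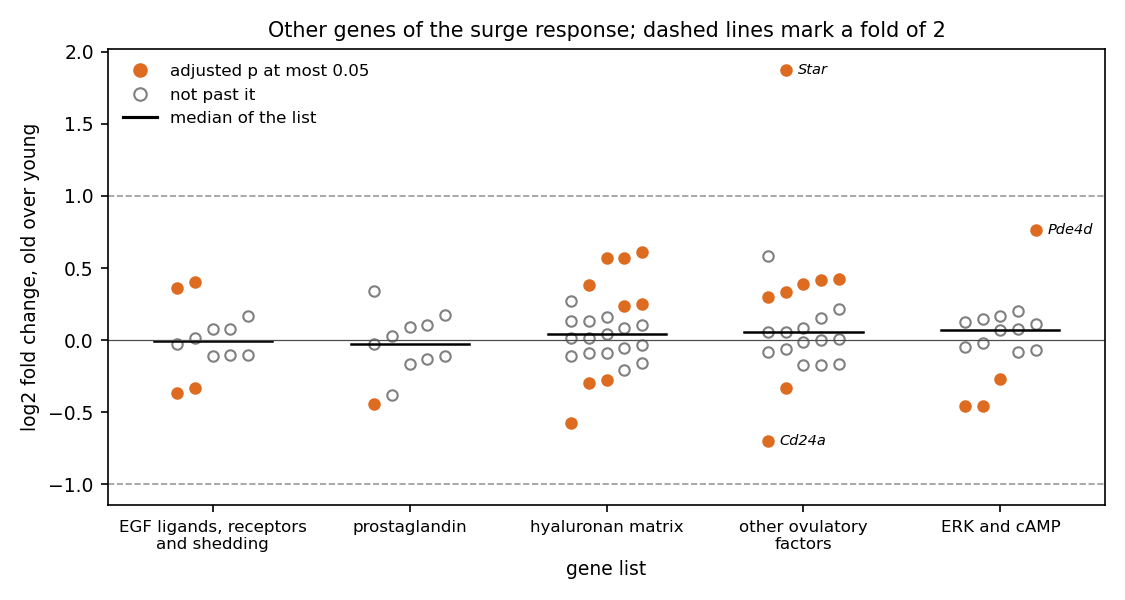
Difference between old and young samples (log2 fold change) for the genes of the 5 surge-related lists, 1 point per gene, filled where the adjusted p was at most 0.05, with a bar at the median of each list and dashed lines at a fold of 2. Star at 1.87 is the only gene beyond these lines, and the 5 medians lie between -0.02 and 0.07.

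The genes outside the list with the profile most like each of Adamts1, Btc and Ptgs2 were sought by the Euclidean distance between log2 values centred on each gene's mean, over the 6 samples. For Adamts1 these were Alas2 (distance 0.147), Csf1r (0.172) and Vmn2r84 (0.174). For Btc they were Unc5cl (0.160), A230051N06Rik (0.161) and Eomes (0.169). For Ptgs2, which was dim in 5 of 6 samples, they were Zic1 (0.305), Gm20740 (0.316) and Gcsam (0.338), so its nearest profiles were further away. The means of Zic1 (1.96 in young, 2.57 in old) and Gcsam (1.96 and 2.48) lay below the lower quartile. So did the young means of Vmn2r84 (2.67), Unc5cl (2.94) and Gm20740 (2.98). With 6 samples in 2 groups, any gene of like difference and like spread comes out as near.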

How the data were processed

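Biotin-labelled RNA of secondary follicles was hybridized to 6 Affymetrix mouse 3' expression arrays, 3 per age. The authors processed the scans with RMA, of unstated version, and deposited intensity values on a linear scale, of which log2 was taken. Probe sets with 1 listed symbol (34945 without controls) were used, and symbols were updated through RefSeq for 18032 of 18194 gene IDs. Groups came from the titles. The fit used limma 3.58.1 in R 4.3.3 (lmFit, eBayes, two-sided, Benjamini-Hochberg over 18193 genes). SAM, coded here after its published description with 20 label assignments, was an alternative, as were other normalizations, scales, probe set choices and filters. Single values had exact permutation tests. The number of arrays limits the precision, and whether replicates came from separate mice is not stated beyond the label "biological", so the p-values may reflect only technical spread. Members and lists were chosen with earlier results of these data known. Named genes were all members, up to 6 called or 4 smallest-p genes per list, and the 3 nearest profiles of 3 members. Others were chosen after their values were seen. Simulated data held 18193 genes, of which 17993 were not shifted. There limma's adjusted p recovered 28 of 50 genes shifted by 0.5, 42 of 50 by 0.8 and 50 of 50 by 1.5. The fold rule called 0 of 50 at 0.5 and at 0.8, and 50 of 50 at 1.5. In the measured data 4257 genes passed the adjusted p, so these rates need not hold there. No batch is named in the labels.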

Additional observations from a re-analysis of the deposited data

How the results depend on the processing

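The count of 0 ovulatory genes called at a fold of 2 held in every alternative run, and Adamts1 stayed higher, by 0.51 to 0.87. The count passing the adjusted p, 2 of 8, was 1 with the mean of all probe sets, where 4138 of 18193 genes passed. It was 1 after a further quantile normalization (4090 of all genes) and 1 after cyclic loess (4119). It was 0 when genes dimmer than the median were left out, which kept only Vcan of the 8, while 4160 of 9097 genes passed. The count was 1 to 2 when 1 sample was left out, being 1 without young replicate 1, old replicate 2 or old replicate 3. In those runs 2615 to 3615 of all genes passed, against 4257 in the main fit. Btc had an adjusted p of 0.066 after quantile normalization and 0.062 after loess. Ptgs2 passed with a trended, robust variance prior (adjusted p = 0.011). Star was removed by the same dim filter, so the ovulatory effector list went from 1 called to 0. The shift of Vcan probe set 1421694_a_at against the brightest was -0.42 after quantile normalization and -0.43 with log2(intensity + 32), and -0.47 to -0.44 when 1 sample was left out, and that of 1427257_at was -0.40 to -0.32. Small differences turned sign. Tnfaip6 was 0.015 without old replicate 2. Vcan 1433044_at no longer passed the adjusted p after quantile normalization (0.22, adjusted p = 0.063), with log2(intensity + 32) (0.06, adjusted p = 0.096) and without old replicate 3 (0.30, adjusted p = 0.057). With log2(intensity + 32), which shrinks differences of dim probe sets, Vcan 1433043_at was 0.11 (adjusted p = 0.020) and Ptgs2 0.11 (adjusted p = 0.098). Ptgs2 1417263_at was -0.052 after quantile normalization, -0.063 after loess, and -0.10 to 0.149 when 1 sample was left out (below 0 without young 1, old 1 or old 3). Ptx3 1418666_at was -0.00020 after quantile normalization, -0.0082 with array weights, and -0.11 to 0.247 when 1 sample was left out (below 0 without young 1 or old 2). Btc 1421161_at was -0.0052 after loess. Vcan 1447586_at was 0.032 with array weights and -0.050 to 0.083 when 1 sample was left out (above 0 without young 1 or old 3). Vcan 1447887_x_at was 0.045 with array weights and -0.094 to 0.079 when 1 sample was left out (above 0 without young 1 or old 1). Has2 1449169_at was 0.02 with array weights and -0.126 to 0.022 when 1 sample was left out (above 0 without old 2). The cause was not tested. Over all genes, 116 higher and 23 lower became 59 and 6 with log2(intensity + 32), and 52 and 9 with the dim filter over 9097 genes. Samples with the same replicate number did not deviate together (correlations 0.053, -0.00030 and 0.043), and the fit with the replicate block passed the same number of ovulatory genes, 2, with 3406 of all genes past the adjusted p against 4257.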
